A study of Danio rerio with 12 samples.

Results

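The actinodin genes and1 and and2 were followed on 12 Affymetrix zebrafish arrays of regenerating larval caudal fin. Every probe set whose platform gene symbol is and1 or and2 was taken, which gave 1 probe set for each gene, 2 of the 15617 rows of the deposited table. The 4 groups, of 3 arrays each, were TCDD and vehicle at 2 days post amputation (2 dpa) and TCDD and vehicle at 3 dpa. Larvae of the AB strain had their caudal fins cut at 2 days post fertilization and then spent 1 h in water holding 0.5 ng/mL TCDD or the vehicle DMSO. TCDD (2,3,7,8-tetrachlorodibenzo-p-dioxin) is a persistent agonist of the aryl hydrocarbon receptor. No group carried a transgene or a mutation, and no group of uncut fins was analysed here. Each array holds the RNA of 150 pooled fins, so a value is an average over many animals and over every cell type of the regrown tissue.

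Actinotrichia are the unmineralised, collagen-rich fibres that fan out in the larval fin fold and that hold up the growing edge of adult fin rays. Actinodins are structural proteins of these fibres, laid down together with fibrillar collagens between the epidermal sheets, and in zebrafish the fin fold lacks actinotrichia when and1 and and2 are knocked down together. In zebrafish both genes are transcribed in fin fold epidermis and in the mesenchyme that moves into the fold, and they are switched on again in regenerating fins. The comparison asks whether exposure to TCDD altered their transcripts in the regrowing fin, and whether the level differed between the days.

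The deposited value is a linear ratio. For and1 and and2, and for 12064 of the 15617 rows, its median over the 12 arrays is 1, so that 1 stands for the probe set's own median; for the other rows the median lies below 1. The divisor is not stated, and it may have a lower limit that dim probe sets do not reach. Differences are given as log2 of the ratio. Levels of and1 and and2 cannot be set against each other on this scale, and neither the signal above background nor the presence of the tissue's markers can be judged from it. The labels were checked with cyp1a, the classical target gene of the aryl hydrocarbon receptor, whose ratio lay between 1.98 and 4.30 on the 6 TCDD arrays and between 0.000773 and 0.0241 on the 6 vehicle arrays. Of the arrays, the second TCDD array at 2 dpa stood apart in its CreX hybridisation controls. These 2 controls are spiked in at a fixed amount. They averaged −0.52 on the log2 scale, against −0.23 to 0.26 on the other 11 arrays. The 7 Bio hybridisation controls of the same array averaged −0.02, inside the range of the other arrays (−0.19 to 0.34). This array was also the lowest for both actinodin genes. The permutation tests of TCDD against vehicle for and1 and and2 are given with and without it. So are the correlations of these genes with each other and with the probe sets most like and most unlike them. Correlations with array measures are given over all 12 arrays only.

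and1 had ratios of 1.13, 0.682 and 0.921 on the TCDD arrays at 2 dpa, against 0.971, 1.00 and 1.17 on the vehicle arrays at 2 dpa. The groups overlapped, with 2 of the 3 TCDD arrays below all vehicle arrays and the first TCDD array close to the highest vehicle array. At 3 dpa the ratios of and1 were 0.924, 0.998 and 0.817 with TCDD, against 1.07, 1.04 and 1.07 with vehicle. Here the groups did not overlap, with a gap of 0.06 on the log2 scale, and the vehicle arrays lay closer together than those of any other group. Over the whole table, the 3 TCDD arrays all lay below the 3 vehicle arrays for 11.8% of probe sets at 2 dpa and for 8.3% at 3 dpa.

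and2 had ratios of 0.999, 0.674 and 0.940 with TCDD at 2 dpa, against 0.983, 1.07 and 1.09 with vehicle at 2 dpa. Again 2 of the 3 TCDD arrays lay below all vehicle arrays, and the first TCDD array fell just inside the vehicle range. At 3 dpa and2 had ratios of 0.974, 1.00 and 0.808 with TCDD, against 1.15, 1.099 and 1.17 with vehicle, without overlap and with a gap of 0.14 on the log2 scale. The lowest array for both genes was the second TCDD array at 2 dpa, and the next lowest was the third TCDD array at 3 dpa.

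**Figure D1:**
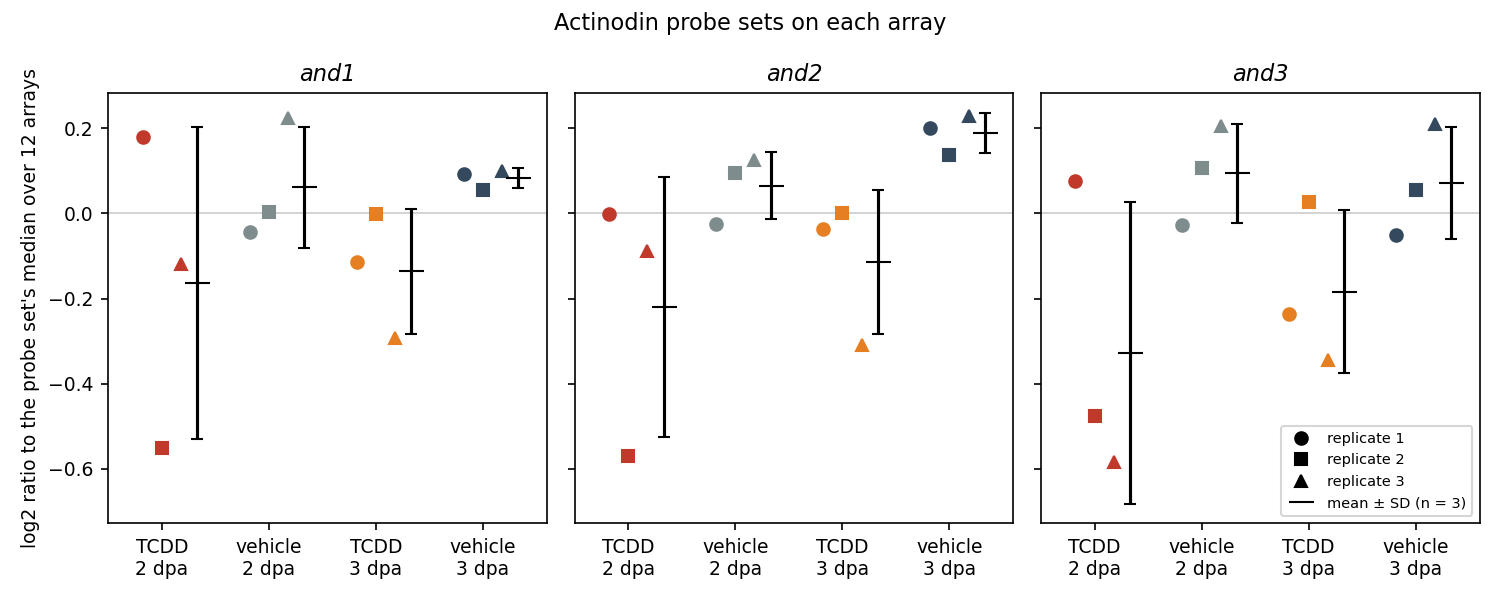
Log2 ratio of the and1, and2 and and3 probe sets on each of the 12 arrays, by group (x axis), with the mean and SD of each group of 3 (black). The second TCDD array at 2 dpa is lowest for and1 (−0.55) and and2 (−0.57), and at 3 dpa the TCDD and vehicle arrays separate for and1 and and2.

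The spread of both genes was small. From the lowest to the highest array and1 spanned 1.71-fold and and2 1.74-fold. The SD within groups was 0.210 (log2) for and1 and 0.181 for and2, at percentiles 47.1 and 37.3 of all tested probe sets, whose median was 0.220. The genes were therefore neither unusually noisy nor unusually steady.

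On average over the days the log2 difference between TCDD and vehicle was −0.22 for and1 and −0.29 for and2, and neither difference passed the test across the whole table. Group means of and1 were −0.16 ± 0.37 with TCDD and 0.06 ± 0.14 with vehicle at 2 dpa, and −0.14 ± 0.15 with TCDD and 0.08 ± 0.02 with vehicle at 3 dpa (log2 ratio, SD, n = 3 each). The means of and2 were −0.22 ± 0.31 with TCDD and 0.06 ± 0.08 with vehicle at 2 dpa, and −0.11 ± 0.17 with TCDD and 0.19 ± 0.05 with vehicle at 3 dpa (log2 ratio, SD, n = 3 each). In a limma fit of 4 group means on 15502 probe sets, with Benjamini-Hochberg adjustment over all of them and a call at adjusted p under 0.05, 0.161% of probe sets were called at 2 dpa, 0.574% at 3 dpa and 5% for the mean of both days. Neither actinodin gene was among them. For the mean of both days, 3333 of the 15502 probe sets had an unadjusted p under 0.05. In bulk tissue a lower level can come from fewer cells of a type or from less RNA per cell, and these cannot be told apart.

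For and1 the log2 difference between TCDD and vehicle was −0.22 at 2 dpa (95% interval −0.59 to 0.14, limma adjusted p = 0.731) and −0.22 at 3 dpa (95% interval −0.59 to 0.15, limma adjusted p = 0.594). Averaged over the days it was −0.22 ± 0.12 (SE), or 0.858-fold with a 95% interval from 0.716-fold to 1.03-fold (limma adjusted p = 0.316). For and2 the difference was −0.28 at 2 dpa (95% interval −0.61 to 0.04, limma adjusted p = 0.564) and −0.30 at 3 dpa (95% interval −0.63 to 0.02, limma adjusted p = 0.361). Averaged over the days it was −0.29 ± 0.10 (SE), or 0.816-fold with a 95% interval from 0.696-fold to 0.956-fold. This interval, which concerns 1 probe set alone, lies below 1, while adjustment over all probe sets gave a limma adjusted p of 0.129. At their lower ends the intervals of single days reach 0.663-fold at 2 dpa and 0.666-fold at 3 dpa for and1, and 0.656-fold and 0.647-fold for and2.

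**Figure D2:**
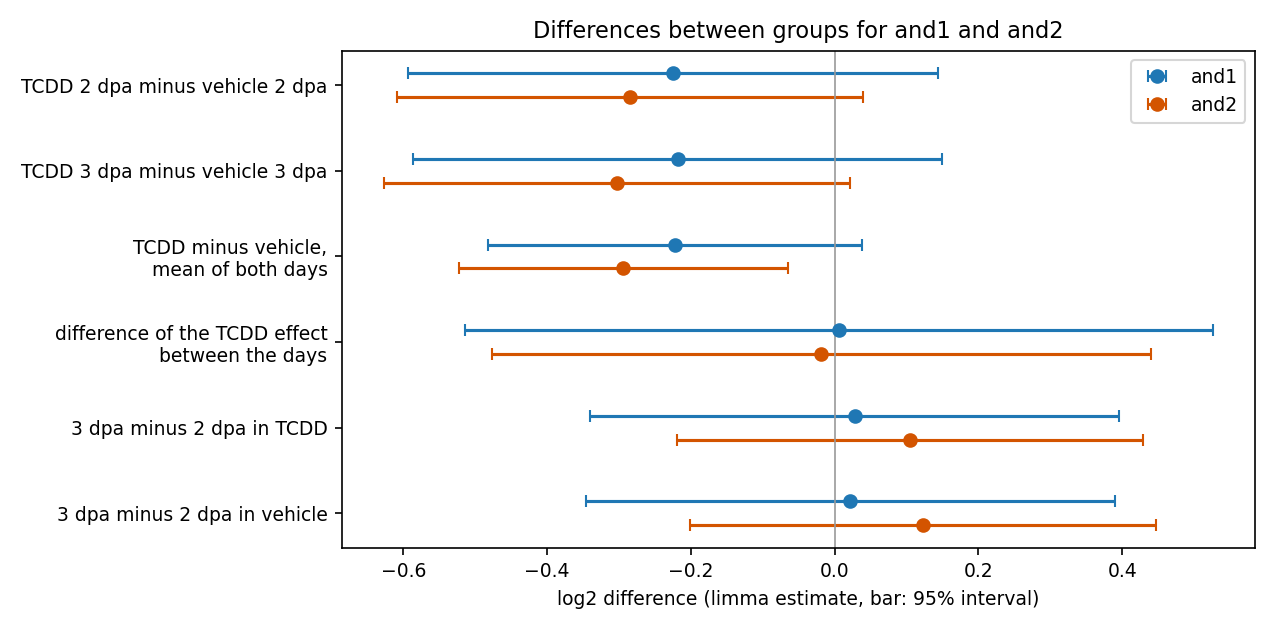
Log2 differences of and1 (blue) and and2 (orange) in the 6 comparisons of the design, from limma, with 95% intervals. For the mean of both days the interval of and2 (−0.52 to −0.06) stays below 0, and the other intervals include 0.

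An exact permutation test of the single genes shuffled treatment labels within each day, over 400 arrangements and two-sided, with a smallest possible p of 0.005. On a single day 3 arrays against 3 cannot give a p below 0.1, so only the days together were tested. The difference of and2, −0.29, had an exact p of 0.01, and that of and1, −0.22, had an exact p of 0.08. These are p-values of single genes with no adjustment over the table, 2 of 4 such tests of these genes. Without the second TCDD array at 2 dpa the difference was −0.21 for and2 (exact p = 0.015) and −0.12 for and1 (exact p = 0.195). Without the first TCDD array at 2 dpa, the highest of its group, that of and1 was −0.31 (exact p = 0.005, the smallest possible). The tests without 1 array had 200 arrangements each, so their p-values are not on the same footing as those of all arrays. The 2 dpa difference of and1 itself was −0.03 without the second TCDD array and −0.40 without the first, and that of and2 was −0.11 without the second TCDD array.

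Other measures moved with the actinodin values over the arrays. The mean log2 ratio of the 2 genes correlated at r = 0.782 with the CreX controls and at r = 0.632 with the median of 72 probe sets of cytosolic ribosomal proteins. With the Bio controls r was 0.402, and with the median of all tested probe sets it was 0.370 (n = 12 arrays, all as descriptions). The second TCDD array at 2 dpa had the lowest CreX mean and the lowest ribosomal median (−0.31), and these r were not computed without it. The log2 difference between the 5′ and 3′ GAPDH control probe sets, a sign of how full-length the labelled RNA was, lay between 0.169 and 0.486 on the TCDD arrays and between −0.102 and 0.0816 on the vehicle arrays. It correlated at r = −0.551 with the actinodin mean, and its part in the result was not tested. Relative to the ribosomal protein median, the difference averaged over the days was −0.07 for and2 (exact p = 0.505) and 0.00 for and1 (exact p = 0.985). That scaling shifts the median TCDD difference of all tested probe sets upward by 0.22. It subtracts the same value from every probe set of an array, so by construction it cannot change the distance between probe sets.

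Over time neither gene differed beyond the spread. Between the days and1 had a log2 difference, 3 dpa minus 2 dpa, of 0.03 with TCDD and 0.02 with vehicle, and and2 had 0.10 with TCDD and 0.12 with vehicle. limma called 0 of all tested probe sets in either comparison (0%), with 621 at an unadjusted p under 0.05 in TCDD and 578 in vehicle, and 0 were called under every alternative setting run. Day labels shuffled within treatments gave an exact permutation p of 0.835 for and1 and of 0.28 for and2 (two-sided). The TCDD effect at 3 dpa minus that at 2 dpa was 0.01 for and1 (95% interval −0.51 to 0.53) and −0.02 for and2 (95% interval −0.48 to 0.44), where limma again called 0 probe sets (0%; 226 at an unadjusted p under 0.05). These intervals are wide and do not show that the effect was equal on both days.

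For both genes the order of the group means, low to high, began with TCDD at 2 dpa and TCDD at 3 dpa, followed by vehicle at 2 dpa and vehicle at 3 dpa. Neighbours in this order did not differ beyond their spread. The step between TCDD at 3 dpa and vehicle at 2 dpa was −0.20 for and1 (limma adjusted p = 0.579) and −0.18 for and2 (limma adjusted p = 0.565). The genes therefore shared an order in which both TCDD groups came below both vehicle groups, with no single step called.

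and1 and and2 varied together from array to array. Over the 12 arrays their log2 ratios correlated at Pearson r = 0.918 (permutation p = 0.000290, adjusted p = 0.000870 over 3 pairs of actinodin genes) and Spearman rho = 0.832 (permutation p = 0.00153). The arrays share their RNA pool, labelling and scaling between the genes. Without the arrays farthest from the median of and1, the second TCDD array at 2 dpa and the third at 3 dpa, r was 0.618 (permutation p = 0.0593, n = 10) and rho was 0.709 (permutation p = 0.0266), so the Pearson relation no longer passed while the rank relation did. For deviations from the group means, which leave the group differences out and keep all 12 arrays, r was 0.932 (permutation p = 3.00e-05). This permutation moved deviations freely between groups, though they cancel within each group and differ in spread between groups. The SD of and1 was 0.37 with TCDD at 2 dpa and 0.02 with vehicle at 3 dpa. The p of the deviations is therefore approximate and can be too small. Within the 6 TCDD arrays r was 0.938 (exact permutation p = 0.00417) and within the 6 vehicle arrays it was 0.570 (exact permutation p = 0.232).

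**Figure D3:**
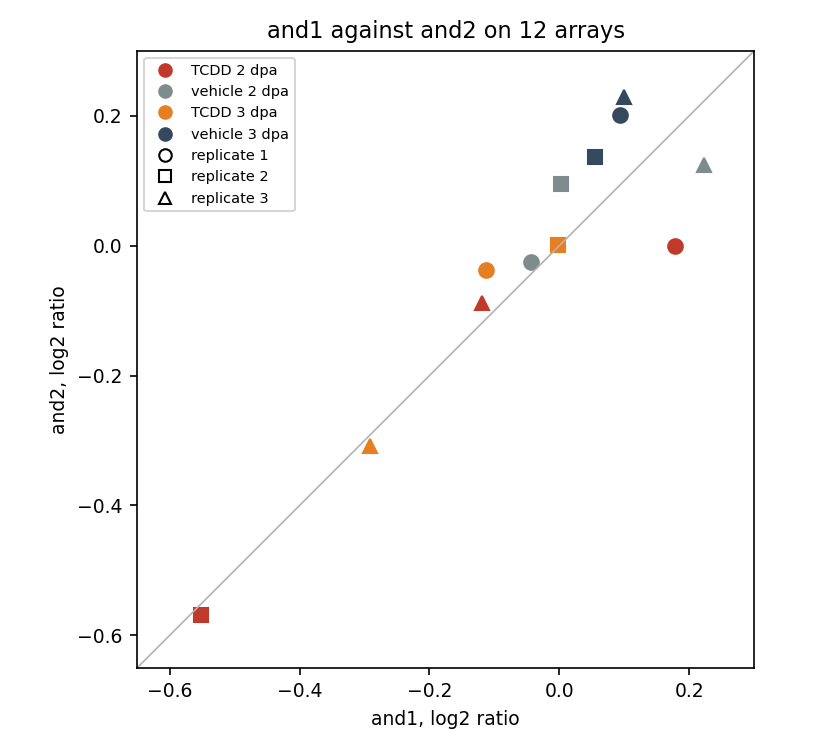
Log2 ratio of and1 (x axis) against and2 (y axis) on the 12 arrays, coloured by group and shaped by replicate, with the line of equal ratios. The 2 lowest points, both TCDD arrays, carry much of the correlation (r = 0.918 with them, 0.618 without).

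The genes differed little from each other in response. The TCDD effect of and1 minus that of and2 was 0.07 (exact permutation p = 0.13), and the difference between the days, 3 dpa minus 2 dpa, of and1 minus that of and2 was −0.09 (exact permutation p = 0.065). Both tests were chosen after the values had been seen.

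A further family member, and3, which also encodes an actinodin, had 1 probe set, and and4 had 0. and3 had ratios of 1.05, 0.719 and 0.668 with TCDD at 2 dpa, against 0.981, 1.08 and 1.15 with vehicle at 2 dpa. At 3 dpa it had 0.849, 1.02 and 0.788 with TCDD, against 0.965, 1.04 and 1.16 with vehicle, and the groups overlapped on both days. Its difference averaged over the days was −0.34 ± 0.12 (SE; limma adjusted p = 0.138; exact permutation p = 0.03). All 3 measured actinodin genes thus had negative differences on both days, where 51.7% of tested probe sets were below 0 at 2 dpa and 47.3% at 3 dpa. limma called 0 of the 3. For the mean of both days 2 of the 3 had an unadjusted p under 0.05, as did 3333 of the 15502 tested probe sets. Of the neighbours of and1 and and2 in the RefSeq annotation of GRCz12tu, only cops9, next to and1, had a probe set. cops9, a COP9 signalosome subunit gene, had a difference of −0.47 ± 0.17 (SE; limma adjusted p = 0.137). In that annotation and1 overlaps adipoqa, which has no probe set of its own.

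Collagens are the partners of the actinodins in the fibre, and enzymes of collagen hydroxylation and cross-linking shape its strands. The list of such genes held 27 symbols, of which 16 were measured by 19 probe sets. Averaged over the days, 5 of these 19 probe sets fell with TCDD and 0 rose (limma; 1 was higher at an unadjusted p under 0.05), where 3.2% of all tested probe sets fell and 1.8% rose. Their median difference was −0.32 with 15 of 19 below 0, against a median of 0.00 and 48.7% below 0 over all tested probe sets. The count of 5 depends on the arrays used: it was between 0 and 8 when single arrays were left out, and 0 without any 1 of the 3 vehicle arrays at 2 dpa or without the first vehicle array at 3 dpa. It was 1 without the first or the third TCDD array or the second vehicle array at 3 dpa, and 3 without the second or the third TCDD array at 2 dpa or the third vehicle array at 3 dpa. It was 8 without the second TCDD array at 3 dpa. In that fit 835 of all tested probe sets were called lower, against 496 with all arrays. In the fits with a count of 0, between 182 and 263 of all tested probe sets were. Without the third vehicle array at 3 dpa, 1 probe set of the list was called higher. That fit called 763 of all tested probe sets, 507 of them lower.

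The probe sets that fell belonged to loxa and loxl2b, lysyl oxidase genes whose enzymes cross-link collagen, col11a1a, a minor fibrillar collagen, col1a2, a chain of type I collagen, and p4ha1b, a prolyl hydroxylase subunit. loxa had a log2 difference of −2.12 ± 0.43 (SE; limma adjusted p = 0.0248) and loxl2b one of −2.11 ± 0.43 (SE; limma adjusted p = 0.0268). col11a1a had −1.54 ± 0.35 (SE; limma adjusted p = 0.0367) and p4ha1b −1.28 ± 0.30 (SE; limma adjusted p = 0.0417). For col1a2, 1 probe set was called at −1.32 ± 0.26 (SE; limma adjusted p = 0.0246) and the other had −1.21 ± 0.31 (SE; limma adjusted p = 0.0508). The called probe set had ratios of 0.905, 0.734 and 0.373 with TCDD at 2 dpa, against 1.32, 1.37 and 1.23 with vehicle at 2 dpa. At 3 dpa it had 0.586, 0.457 and 0.215 with TCDD, against 1.19, 1.18 and 1.095 with vehicle, and the groups did not overlap on either day. Over all tested probe sets, the TCDD arrays all lay below the vehicle arrays for 11.8% at 2 dpa and 8.3% at 3 dpa. The share for both days was not computed. This probe set is shown because it was called on the same arrays, so the lack of overlap is no independent evidence.

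Other members were not called. col1a1a, which encodes the main chain of type I collagen, had 2 probe sets at −0.20 ± 0.10 and −0.18 ± 0.10 (SE; limma adjusted p = 0.277 and 0.371). plod1a, a lysyl hydroxylase gene, had −0.67 ± 0.23 (SE; limma adjusted p = 0.120). serpinh1b, the collagen chaperone gene, had the highest value of the list, 0.97 ± 0.35 (SE; limma adjusted p = 0.142). The collagen genes col2a1a, col9a1b and col9a2 also had differences above 0. Each was highest on the third TCDD array at 3 dpa, with ratios there of 8.29, 6.14 and 4.72.

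**Figure D4:**
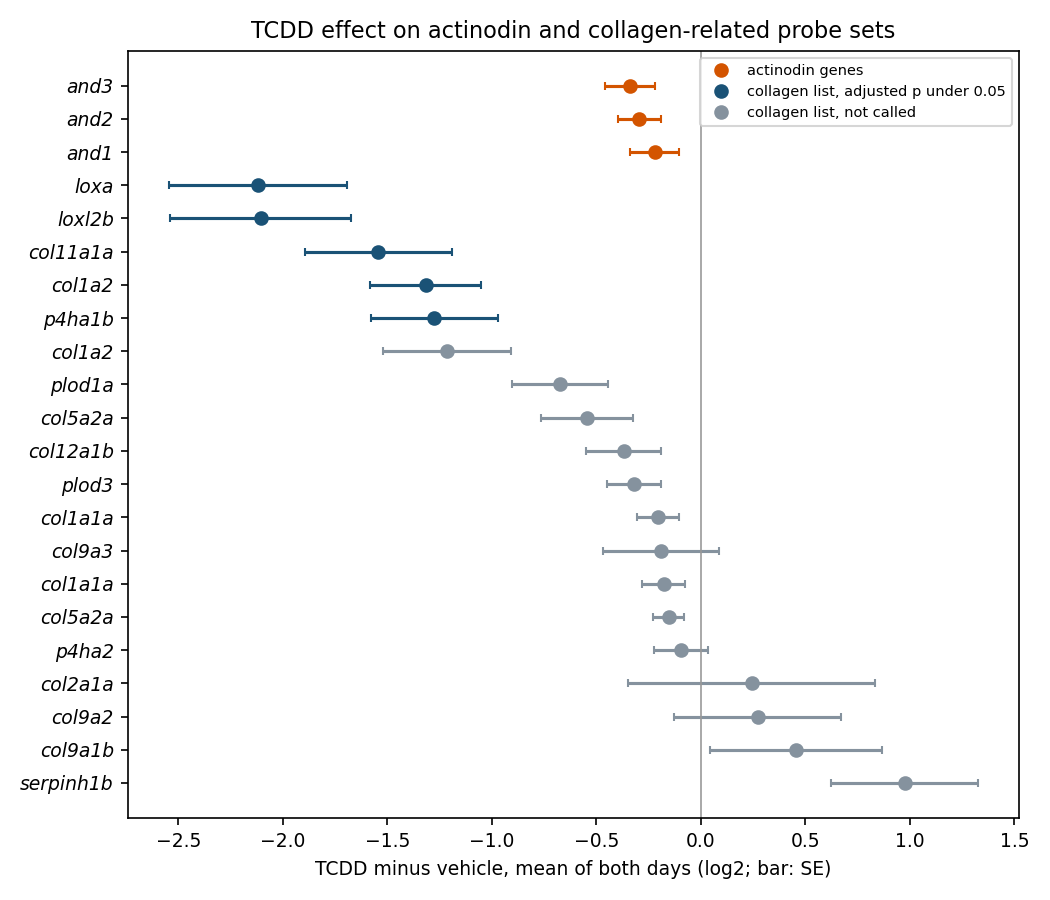
Log2 difference, TCDD minus vehicle, averaged over 2 and 3 dpa, for the actinodin probe sets (orange) and the collagen list (blue where limma's adjusted p was under 0.05, grey where not), with the SE from limma. The actinodins lie between −0.34 and −0.22, near col1a1a and other probe sets that were not called. The 5 called probe sets lie between −2.12 and −1.28.

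The collagen-related effects were set against those of the actinodins array by array, with treatment labels shuffled within days (400 arrangements, two-sided) for all 38 pairs of a list probe set with and1 or and2. The effect on loxa was lower than that on and1 by a log2 difference of −1.90 and lower than that on and2 by −1.83, each with an exact p of 0.005 (adjusted p = 0.0238 over the 38 pairs, the smallest value reached). loxl2b, at −1.89 and −1.81, and col11a1a, at −1.32 and −1.25, had the same p-values. The called col1a2 probe set was lower by −1.096 than and1 (exact p = 0.01, adjusted p = 0.0422 over the pairs) and by −1.02 than and2 (exact p = 0.005, adjusted p = 0.0238). p4ha1b, the remaining called gene, was lower by −1.05 than and1 (exact p = 0.02) and by −0.98 than and2 (exact p = 0.025), which did not pass over the pairs (adjusted p = 0.0543 and 0.0633). The other col1a2 probe set was lower by −0.99 than and1 and by −0.92 than and2 (exact p = 0.015 and adjusted p = 0.0518 for each). On these arrays the TCDD differences of loxa, loxl2b, col11a1a, p4ha1b and both col1a2 probe sets thus lay further below 0 than those of the actinodins. The gaps of p4ha1b and of the other col1a2 probe set did not pass over the pairs. Apart from the other col1a2 probe set, these probe sets had already been called on the same arrays. The pair tests were added after the data had been seen. A gap from the smaller actinodin differences was therefore partly fixed in advance, and the p-values of the pairs are no independent evidence of it. In the other direction, the effect on serpinh1b was higher than that on and1 by 1.20 (exact p = 0.03, adjusted p = 0.071). It was higher than that on and2 by 1.27 (exact p = 0.02, adjusted p = 0.0543). The effects on col2a1a, col9a1b and col9a2 were higher than that on and1 by 0.46, 0.68 and 0.49 (exact p = 0.475, 0.145 and 0.37). From the effect on and2 they differed by 0.54, 0.75 and 0.57 (exact p = 0.44, 0.13 and 0.285). At an unadjusted exact p under 0.05, 6 probe sets were lower and 1 higher than and1, and 6 were lower and 3 higher than and2.

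For col1a1a the difference from the actinodin effect was small. Its probe sets had effects higher than that of and1 by 0.04 (exact p = 0.165) and 0.02 (exact p = 0.765). Against and2 they were higher by 0.12 (exact p = 0.005, adjusted p = 0.0238 over the pairs) and by 0.09 (exact p = 0.02, adjusted p = 0.0543). A small difference was not particular to col1a1a. From and1 and and2, in that order, plod3 differed by −0.10 and −0.03, and col12a1b by −0.15 and −0.08. col9a3 differed by 0.03 and 0.10, and 1 col5a2a probe set by 0.07 and 0.14. The exact p of these pairs lay between 0.325 and 0.9.

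Among probe sets with 1 gene symbol that is not a clone name, col1a1a also had the pattern most like the actinodins. Only these probe sets were ranked, by the Pearson correlation of their log2 ratios with the mean of and1 and and2 over the 12 arrays. The 2 col1a1a probe sets came first (r = 0.963 and 0.957). One of them had ratios of 1.00, 0.695 and 0.924 with TCDD at 2 dpa, against 0.910, 1.04 and 1.01 with vehicle at 2 dpa, and at 3 dpa 0.894, 1.01 and 0.788 with TCDD, against 1.09, 1.00 and 1.02 with vehicle. The lowest arrays, the second with TCDD at 2 dpa and the third with TCDD at 3 dpa, were those of and1 and and2. Without the second TCDD array at 2 dpa the correlations of the col1a1a probe sets were 0.916 and 0.891.

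Next came sltm (r = 0.880), whose product is a nuclear RNA-binding protein, 3 probe sets of the mitochondrial cytochrome oxidase gene COX1 (r = 0.880, 0.879 and 0.864), and the ribosomal protein gene rplp2b (r = 0.872). The thymosin genes tmsb1 (r = 0.870) and tmsb4x (r = 0.856), which encode actin-binding peptides, and sucla2 (r = 0.865), for a subunit of succinyl-CoA ligase, completed the 10. Without the second TCDD array at 2 dpa, r was 0.901 for rplp2b, 0.733 for sucla2, 0.680 for tmsb1, 0.658 for sltm and 0.573 for tmsb4x, and 0.657, 0.701 and 0.625 for the COX1 probe sets. Apart from col1a1a and rplp2b, the likeness of these probe sets was thus clearly lower without that array. Of the ranked probe sets, the 5 most unlike the actinodins were ano1a (r = −0.842), a chloride channel gene, hbae3 (r = −0.821), an embryonic globin gene, her8a (r = −0.820), sh3bp5b (r = −0.815) and dram2b (r = −0.813). Without that array their r lay between −0.764 (dram2b) and −0.566 (sh3bp5b). Each r is a description over arrays that share their RNA pools and scaling.

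Among the 15501 other probe sets, and2 ranked 4th in likeness to and1, and and1 ranked 3rd in likeness to and2. Without the second TCDD array at 2 dpa, and2 ranked 126th for and1 (r = 0.805) and and1 ranked 227th for and2. The 2 col1a1a probe sets, 2nd and 3rd for and1 and 1st and 2nd for and2 over all arrays, ranked 58th and 106th for and1 and 17th and 45th for and2 without it. and3 ranked 24th for and1 and 57th for and2 over all arrays. The ranks of these genes among each other's nearest probe sets therefore depended on 1 array.

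**Figure D5:**
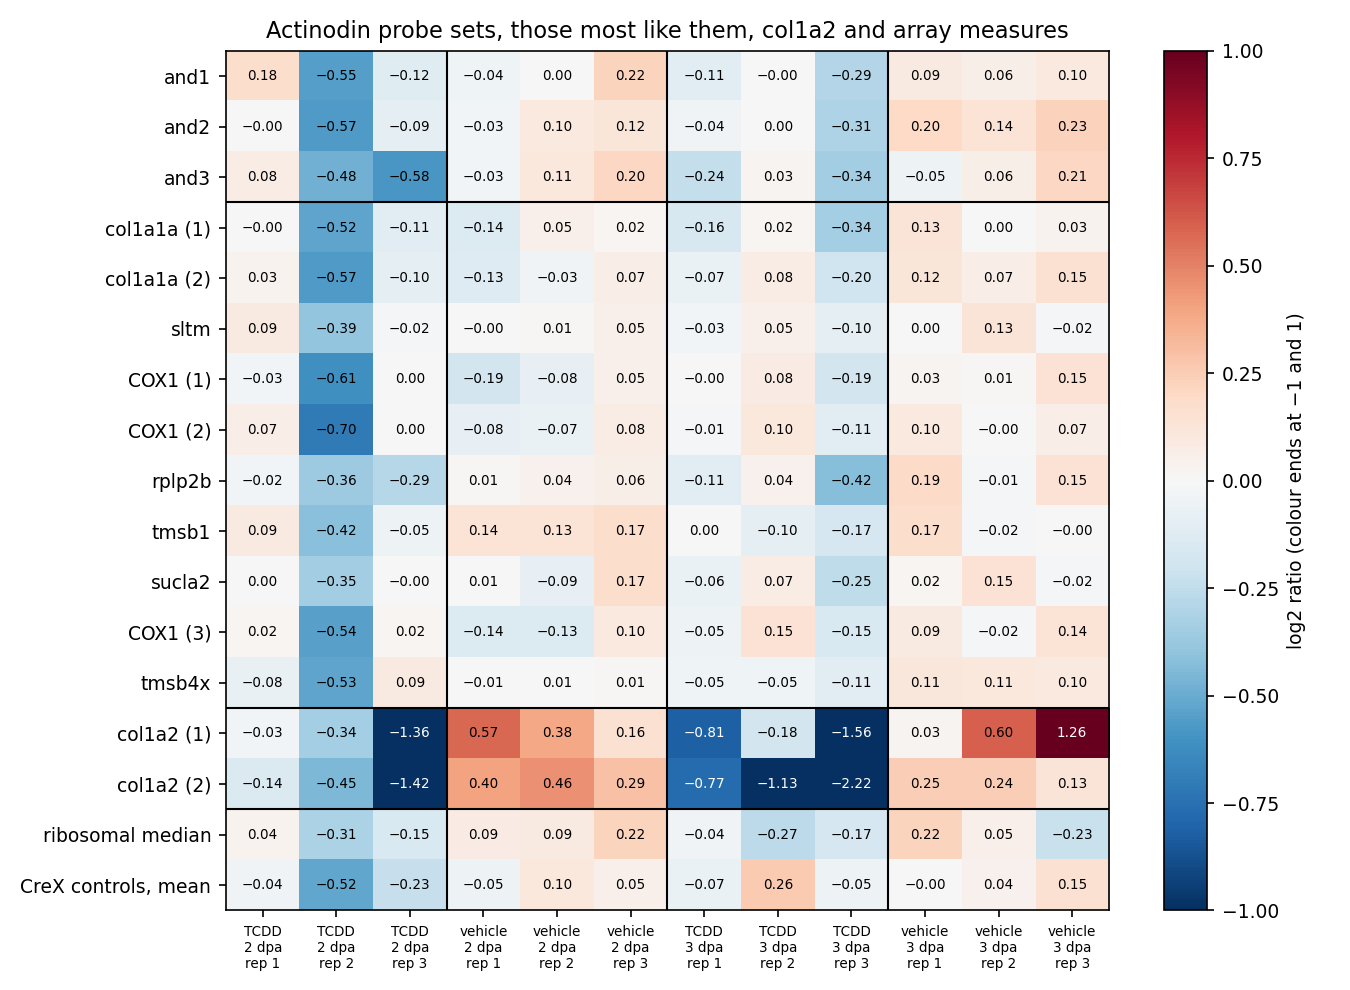
Log2 ratios on the 12 arrays (columns, by group) of the actinodins, the 10 ranked probe sets most like the mean of and1 and and2, both col1a2 probe sets, the ribosomal protein median and the mean of the CreX controls. The second TCDD array at 2 dpa is low in the upper rows and in the CreX controls (−0.52), while col1a2 is lowest on other TCDD arrays.

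The proteins that anchor the fin fold's epidermis to its matrix were sparsely measured. Of 26 genes of the Fraser complex, hemicentins and basement membrane, 6 had probe sets, 8 in all, with a median difference of −0.37 and 7 of 8 below 0. limma called 0 of them for the mean of both days, where 5% of all probe sets were called. At an unadjusted p under 0.05 there were 2 of the 8, against 3333 of the 15502 tested probe sets. lamb1a, a laminin chain, had −0.83 ± 0.24 (SE; limma adjusted p = 0.0741). frem3, a member of the Fraser family, had −0.69 ± 0.28 and −0.70 ± 0.33 in its 2 probe sets (SE; limma adjusted p = 0.190 and 0.250).

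Transcription factors and signals of fin fold outgrowth moved both ways. Of 26 probe sets of 24 genes, 3 rose with TCDD and 1 fell, where 1.8% of all tested probe sets rose and 3.2% fell, and their median difference was −0.01. The homeobox genes dlx4b (1.63 ± 0.20), evx1 (0.87 ± 0.19) and dlx3b (0.66 ± 0.15) rose and dlx4a (−1.15 ± 0.27) fell (log2 difference ± SE, all called by limma).

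Marker lists of the cell types in the regrown tissue were read against the same background. Over all tested probe sets 3.2% were called lower, 1.8% were called higher, and 48.7% were below 0 for the mean of both days. An unadjusted p under 0.05 was found for 3333 of the 15502. Of the fin mesenchyme and blastema list, 21 of 30 genes were measured, by 31 probe sets. limma called 7 of these lower and 0 higher for the mean of both days (2 higher at an unadjusted p under 0.05), with a median difference of −0.26 and 22 of 31 below 0. When single arrays were left out between 7 and 10 fell, where between 182 and 835 of all tested probe sets were called lower. In these fits 1 was called higher without the third vehicle array at 3 dpa or without the second TCDD array at 2 dpa or at 3 dpa. Those 3 fits, in that order, called 763, 549 and 1471 of all tested probe sets, of which 507, 340 and 835 were lower. The 7 called lower with all arrays included kera, a small proteoglycan gene of connective tissue, at −2.90 ± 0.15 (SE; limma adjusted p = 2.59e-05), and both probe sets of the matrix gene postnb, at −1.32 ± 0.13 (SE; limma adjusted p = 0.00105) and −2.11 ± 0.30 (SE; limma adjusted p = 0.00767). The list's median log2 ratio per array ran from −0.32 to −0.07 with TCDD and from 0.14 to 0.23 with vehicle at 2 dpa. At 3 dpa it ran from −0.44 to −0.24 with TCDD and from 0.05 to 0.12 with vehicle.

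Epidermal genes were measured by 33 probe sets of 27 of 31 genes, and 2 of these fell, both of the keratin gene krt91 (−2.02 ± 0.38 and −2.09 ± 0.41, SE), against the 3.2% called lower over all. limma called 0 of them higher, and of 9 at an unadjusted p under 0.05, 6 were higher. The list's median difference was 0.23 with 10 of 33 below 0. Per array the median of the epidermal list ran from −0.22 to 0.20 with TCDD and from −0.04 to 0.03 with vehicle at 2 dpa, and from −0.01 to 0.19 with TCDD and from −0.40 to 0.01 with vehicle at 3 dpa. Of skeletal muscle genes, which the regrown tissue might include, limma called 0 of 21 probe sets (0 also at an unadjusted p under 0.05) and 0 were below 0, with a median difference of 0.30. Of notochord genes, limma called 0 of 12 probe sets (2 were higher at an unadjusted p under 0.05). In that list 1 of 12 was below 0 and the median difference was 0.19.

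Probe sets also fell in the lists of pigment cells, of DNA replication and mitosis, and of bone and cartilage, against the 3.2% called lower over all. Of 6 probe sets of pigment cell genes 3 fell, with a median difference of −0.52, and they measure dct, gch2 and mitfa, genes of melanin and pteridine synthesis and of pigment cell fate. Of 28 probe sets of DNA replication and mitosis genes 6 fell, with a median of −0.48 and 23 of 28 below 0, among them dut (−1.80 ± 0.24, SE), mcm2 (−1.73 ± 0.40, SE) and mcm3 (−1.64 ± 0.38, SE). Of 16 bone and cartilage probe sets 3 fell, with a median of 0.01, namely sox9b (−3.68 ± 0.54, SE), a cartilage transcription factor gene, and both probe sets of cnmd. limma called 0 probe sets of these 3 lists higher (1, of bone and cartilage, was higher at an unadjusted p under 0.05). Of neutrophil and macrophage genes 1 of 17 probe sets rose and 0 fell, against the 1.8% called higher over all. No call was made among 8 probe sets of red blood cells, 6 of endothelium and 15 of neural tissue. At an unadjusted p under 0.05, 3 of red blood cells, 0 of endothelium and 1 of neural tissue were higher. The part of cell composition in the actinodin values was not tested.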

How the data were processed

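Pools of regenerating larval fin from 4 groups were hybridised to 12 arrays, and each array took its group from its label. The deposited value is a ratio on a linear scale, which the authors derived with GCRMA, per the submitters' processing notes; the version and the divisor are not given in the sources used here. From the values, 12064 rows have a median of 1 (tolerance 1e-06) and 3553 a median below 1. The lowest ratio is 0.000773, so log2 was taken with no pseudocount. The table's 115 control probe sets entered no test.

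Differences were fitted with limma 3.58.1 in R 4.3.3 (lmFit and eBayes, 4 group means, all arrays; 8 residual degrees of freedom), two-sided, adjusted by Benjamini-Hochberg over 15502 probe sets. The fit was tested on simulated data. Exact permutations and correlations used SciPy 1.17.1; correlations over 10 or more arrays had 100000 resamples. The number of arrays limits the precision. The labels call each pool of fins a separate replicate.

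The members and gene lists were chosen with earlier results of these data known. The text names the members, the collagen and basement membrane lists, up to 4 called genes of other lists, the 10 probe sets most like and 5 most unlike the members, genome neighbours and array checks. Permutation p-values of single genes had been planned with adjustment over the members and are given unadjusted. The tests of and3, of and1 against and2 and of the 38 collagen pairs, and the scaling to ribosomal proteins, were added after the data had been seen.

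Replicate numbers were checked as a pairing, by correlating arrays of different groups in their deviations from group means. Same-numbered arrays correlated between −0.25 and 0.49, with a median of 0.03 and 7 of 18 pairs over 0.1. Arrays of other numbers correlated between −0.58 and 0.45, with a median of −0.03 and 8 of 36 pairs over 0.1. These ranges overlap widely and their difference was not tested, so whether the numbers pair the arrays is not decided. The main fit treats the arrays as unpaired.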

Additional observations from a re-analysis of the deposited data

How the results depend on the processing

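The 12 limma comparisons of and1 and and2 were recomputed under 23 alternatives each, 276 in all: 0 gave an adjusted p under 0.05 and 25 changed sign, mostly of differences near 0. Relative to the ribosomal protein median, a scaling chosen after seeing the data, and1 was at 0.051 at 2 dpa and 0.0019 for the mean of both days (limma and exact permutation), its interaction of treatment and day was −0.098, and the permutation result of and2 was −0.070, past no threshold. With the hybridisation controls as a covariate, and1 was −0.18 in vehicle and −0.092 in TCDD for 3 dpa minus 2 dpa, and2 was −0.035 in vehicle, and its interaction was 0.048. With array weights and1 was −0.0085 for 3 dpa minus 2 dpa in TCDD and −0.067 for the interaction. Quantile normalisation gave 0.037 for the interaction of and2. The cause was not tested in any of these. The correlation of and1 and and2 was 0.618 without the farthest arrays and 0.570 within vehicle, both with fewer arrays.

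Leaving out 1 array at a time, and1 ranged from −0.40 to −0.031 at 2 dpa, from −0.29 to −0.14 at 3 dpa, and from −0.31 to −0.12 for the mean of both days and the permutation test. and2 ranged from −0.39 to −0.11, from −0.36 to −0.21, and from −0.35 to −0.21. For 3 dpa minus 2 dpa, and1 ranged from −0.17 to 0.20 in TCDD, from −0.030 to 0.10 in vehicle and from −0.072 to 0.11 over both treatments, and and2 from −0.070 to 0.21, from 0.079 to 0.15 and from 0.027 to 0.17. The interaction ranged from −0.19 to 0.18 for and1 and from −0.19 to 0.091 for and2.

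A replicate block left the estimates as they were, with limma adjusted p of 0.343 for and1 and 0.156 for and2 over both days, and it changed no call of theirs. Of all tested probe sets, between 275 (no moderation of the variance) and 1681 (array weights) were called for the mean of both days, against 775, between 6 and 247 at 2 dpa, against 25, and between 6 and 426 at 3 dpa, against 89. The collagen list had 0 calls without moderation and with the covariate, and 3 with the replicate block. Of all tested probe sets 165, 151 and 594 were called lower for the mean of both days in these fits. With array weights 1 probe set of the collagen list was called higher. Of the mesenchyme list, 2 were called higher with the replicate block, 3 with array weights and 1 with quantile normalisation. These fits called 920, 1681 and 1168 of all tested probe sets, of which 594, 983 and 667 were lower and the rest higher. Relative to the ribosomal protein median, 2 of the mesenchyme list were called higher. That scaling called 1272 of all tested probe sets, of which 173 were lower and the rest higher. The planned mean over a gene's probe sets was not run, since each gene has 1. The ratios give no signal over background, so its limit cannot be stated.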
